A study of Mus musculus with 4 samples.

Results

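The genes described here are 32 genes of glycolysis and of the response to low oxygen, among 54532 genes in a table of RNA sequencing values. They were chosen by name, with earlier results of these data known. They are 16 glycolytic enzymes, 5 transporters and regulators of glycolytic flux, 9 other targets of the hypoxia-inducible factors (HIF), and the HIF alpha subunits Hif1a and Epas1. All 32 were found by symbol in the GENCODE M21 annotation, and all 32 passed the filter on low values. The RNA came from cultured mouse bone marrow cells labelled MSCs. The cells were obtained by digesting marrow that had not been fractionated, and were grown in high-glucose medium with serum. All 4 libraries share the strain CB6F1, an F1 hybrid laboratory strain, and a title with the term aGVHD, which the labels do not spell out. In 2 libraries the treatment was R, an agent whose name the labels do not spell out, at 0.5 µM (written "um" in the labels). In the other 2 the cells were given the solvent DMSO as vehicle. The labels give no time of treatment, no age of the mice and no pooling of animals. They do not tie the 2 replicates of a group to different mice or dishes, and the spread behind each p-value may therefore be technical.

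Glycolysis turns glucose into pyruvate in the cytosol, and lactate dehydrogenase turns pyruvate into lactate when it is not oxidised in mitochondria. HIF is a pair of proteins, an alpha subunit that is destroyed when oxygen is plentiful and a stable partner. The prolyl hydroxylases Egln1, Egln2 and Egln3 mark the alpha subunit for destruction by the von Hippel-Lindau protein. When oxygen is low, HIF binds short elements with the core letters ACGTG or GCGTG and switches on glycolytic enzymes together with genes of mitophagy, pH control, vessel growth and its own feedback. In bone marrow, which is poor in oxygen, stromal and myeloid cells are both known to use this programme.

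The values are FPKM, read abundances that the authors scaled for the length of each gene and the size of each library, so levels can be compared between genes. Whole reads were recovered for 24113 of the 24958 genes above 0 in at least 1 library. These genes held 16534440 to 18085183 reads per library. Differences were tested with limma on log2(FPKM + 1) over the 12176 genes whose mean reached 1 FPKM. On this scale the change of a weakly expressed gene is understated. Of the genes tested 1.72% were called at a Benjamini-Hochberg adjusted p under 0.05. The cells held transcripts of macrophages beside those of stromal cells. All 27 macrophage and monocyte markers passed the filter, with summed levels of 13568 to 17453 FPKM in R and 23101 to 25764 FPKM in vehicle. Lyz2 alone held 7061 to 8891 FPKM of these sums in R and 12540 to 14569 FPKM in vehicle. Of 27 mesenchymal stromal cell markers 24 passed, with summed levels of 2379 to 2468 FPKM in R and 1967 to 1985 FPKM in vehicle. Markers at 0 in every library were 8 of 12 for T and NK cells, 5 of 12 for neutrophils, 4 of 9 for erythroid cells, 1 of 7 for B cells and 0 of 9 for endothelial cells. Under 1 FPKM in every library were, in the same order, 11 of 12, 10 of 12, 8 of 9, 5 of 7 and 7 of 9. In bulk samples such as these, fewer cells of a type and less RNA per cell cannot be told apart.

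The promoters of 3 HIF targets with lower values in R and of 2 enzymes with nearly equal values are shown because each holds at least 1 of the core letter sets: ACGTG in Egln3, Pgk1 and Ldha, GCGTG in Adm, and both in Bnip3. The sequences are the 250 bases before the RefSeq transcript start in GRCm38.p6, written 5′ to 3′ on the strand of the gene. They lie at chr7:138909507-138909756 (minus strand) for Bnip3, chr7:110627407-110627656 (plus strand) for Adm, chr12:54203875-54204124 (minus strand) for Egln3, chrX:106186850-106187099 (plus strand) for Pgk1 and chr7:46845554-46845803 (plus strand) for Ldha. The Ldha window belongs to a start 4329 bases inside the first annotated start of the gene. Capitals mark ACGTG or GCGTG on either strand, so that CACGT and CACGC are matches read on the other strand, and CACGTG, where ACGTG matches on both strands, is also the core of the E-box that other factors bind.
Bnip3: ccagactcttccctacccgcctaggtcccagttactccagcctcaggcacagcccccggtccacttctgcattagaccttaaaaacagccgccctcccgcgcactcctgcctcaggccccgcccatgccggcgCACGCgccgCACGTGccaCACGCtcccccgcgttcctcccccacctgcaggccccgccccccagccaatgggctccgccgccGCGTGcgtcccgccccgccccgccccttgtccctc
Adm: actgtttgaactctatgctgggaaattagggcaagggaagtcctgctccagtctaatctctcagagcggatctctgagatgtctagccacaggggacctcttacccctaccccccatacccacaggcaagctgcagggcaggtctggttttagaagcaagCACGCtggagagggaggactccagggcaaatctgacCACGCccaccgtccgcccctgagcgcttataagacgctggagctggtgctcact
Egln3: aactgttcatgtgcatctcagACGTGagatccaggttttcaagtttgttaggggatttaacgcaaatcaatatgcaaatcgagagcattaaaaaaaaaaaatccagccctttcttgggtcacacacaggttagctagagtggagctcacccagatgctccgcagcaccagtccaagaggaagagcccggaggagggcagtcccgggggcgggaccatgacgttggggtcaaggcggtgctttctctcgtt
Pgk1: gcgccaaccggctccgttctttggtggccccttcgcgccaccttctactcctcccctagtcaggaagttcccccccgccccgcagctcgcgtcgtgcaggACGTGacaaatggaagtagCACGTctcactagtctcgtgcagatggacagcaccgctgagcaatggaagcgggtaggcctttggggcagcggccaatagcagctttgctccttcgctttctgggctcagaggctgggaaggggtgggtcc
Ldha: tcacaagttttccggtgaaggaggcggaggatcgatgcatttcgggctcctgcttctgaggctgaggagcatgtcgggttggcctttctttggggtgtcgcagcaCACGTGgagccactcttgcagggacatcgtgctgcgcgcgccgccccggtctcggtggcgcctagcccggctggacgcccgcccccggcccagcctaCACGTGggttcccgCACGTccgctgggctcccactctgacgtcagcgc

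Of the 32 genes 29 have a promoter window in the RefSeq table, and Bnip3l, Epas1 and Ndrg1 have no entry there. For each gene the window nearest its annotated start was used, from 250 bases before a RefSeq transcript start to 50 after it. That transcript start lay 6492 bases from the annotated start for Hif1a, 5857 for Ankrd37 and 4329 for Ldha. It lay 694 bases away for Gapdh and 587 for Slc16a3. ACGTG or GCGTG was found in 22 of the 29 windows. Among all 32851 windows of this length 43.8% held either. ACGTG, with or without GCGTG, was found in 16 of the 29 windows and in 19.6% of all windows, and CACGTG in 4 of the 29 and in 7.15% of all. By role, 10 of 16 enzymes, 5 of 5 transporters and flux regulators and 6 of 7 other HIF targets had a match, as did Hif1a. A match is a description of letters in this window and not a site. In the 1 window used per gene, no match was found for Vegfa, Hk1, Gpi1, Aldoa, Tpi1, Eno2 and Pkm. The RefSeq table holds 43 windows for the 29 genes, because some genes have several starts, and 34 of the 43 held ACGTG or GCGTG.

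**Figure D1:**
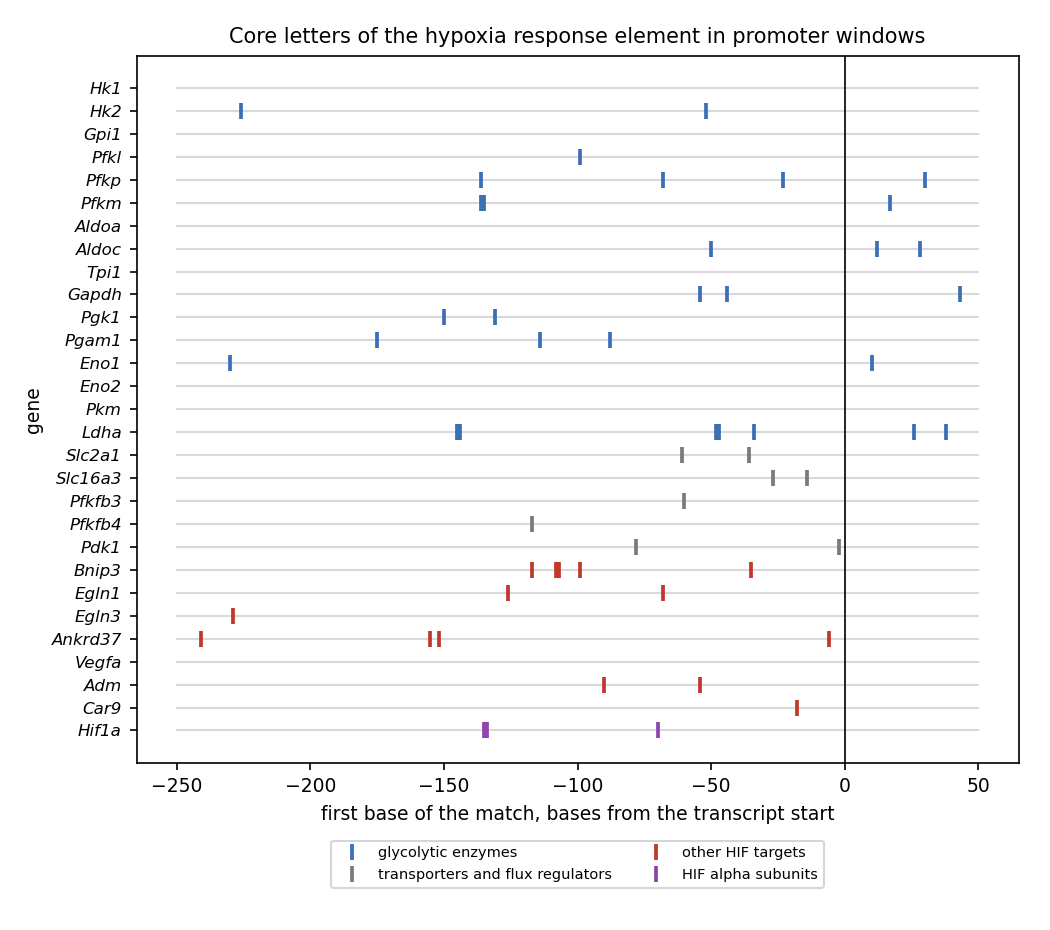
Positions of ACGTG or GCGTG on either strand in 1 promoter window for each of 29 genes. The x axis is the distance in bases of a match's first base from the transcript start. Each grey line is the window used for a gene and each tick a match, coloured by role. Bnip3 has 5 matches and Ldha 7, while Vegfa, Hk1, Gpi1, Aldoa, Tpi1, Eno2 and Pkm have 0.

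Treated and solvent-treated cells were compared gene by gene, and enzymes were set beside the other HIF targets. None of the 32 genes passed the test: limma called 0 higher and 0 lower at an adjusted p under 0.05, where it called 0.345% of all tested genes higher and 1.37% lower. At an unadjusted p under 0.05, 7 of 32 were lower and 1 was higher in R, against 8.83% and 7.16% of all tested genes. Voom on recovered reads, which tested 30 of the 32, called 1, Bnip3, lower, where it called 2.75% of all genes, 2.03% lower. Both R values lay below both vehicle values in 11 genes and above them in 2, where 25.2% and 22.7% of all tested genes were apart in these directions and 47.9% in either. The 11 were 8 of the 9 other HIF targets, Hif1a, Pfkfb3 and Aldoc. The median log2 fold change was -0.36 over the 9 other HIF targets and 0.02 over the 16 enzymes, beside 0.00 over all genes tested. Whether enzymes and other HIF targets differ from each other was not tested.

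**Figure D2:**
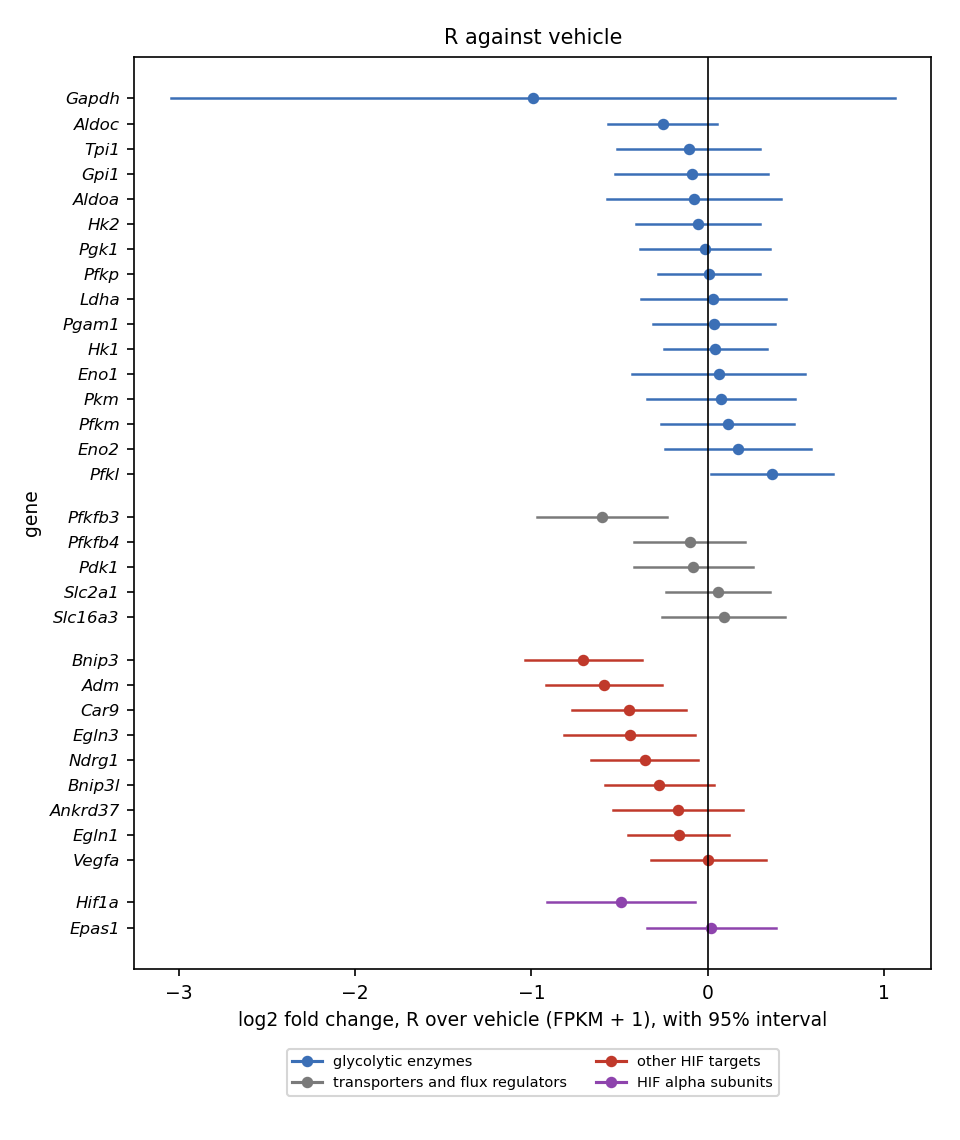
Log2 fold change of R over vehicle on the log2(FPKM + 1) scale for each of the 32 genes, with limma's 95% interval as a bar, ordered by size within 4 roles. The other HIF targets lie between -0.70 (Bnip3) and 0.00 (Vegfa), and the enzymes other than Gapdh between -0.26 (Aldoc) and 0.37 (Pfkl).

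Of the 9 other HIF targets 8 had lower values in both R libraries than in both vehicle libraries, and limma called 0 of them. Bnip3, a mitochondrial membrane protein that recruits the autophagy machinery, lies on chromosome 7 at 138890836 to 138909519 (GRCm38). It was at 23.8 and 27.9 FPKM in R replicates 1 and 2 and at 41.5 and 43.8 FPKM in vehicle replicates 1 and 2. Both R values lay below both vehicle values, and the mean in R was 39.4% lower, at 25.9 ± 2.90 against 42.7 ± 1.63 FPKM (SD, n = 2 each). The log2 fold change was -0.70 (SE 0.135, 95% interval -1.04 to -0.37; limma, Benjamini-Hochberg adjusted p = 0.0749). Voom on recovered reads called it (Benjamini-Hochberg adjusted p = 0.0459). Over 13 alternatives without a replicate block its log2 fold change stayed between -0.82 and -0.59. They include fits with 1 library left out, in which 1 group is not replicated. Its promoter, shown above, has 5 matches. Bnip3l, its relative that removes mitochondria from maturing red cells, was at 28.6 and 31.9 FPKM in R and 36.6 and 36.9 FPKM in vehicle. The groups were apart, with a log2 fold change of -0.27 whose 95% interval, -0.58 to 0.03, includes 0. A pseudogene with 99.4% identity, Bnip3l-ps, was at 5.22 to 7.37 FPKM, so reads of Bnip3l could be split.

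Adm encodes adrenomedullin, a peptide that widens vessels, and lies on chromosome 7 at 110627661 to 110629820. It was at 27.5 and 31.5 FPKM in R and at 46.5 and 43.0 FPKM in vehicle. The vehicle libraries were both higher, and the log2 fold change was -0.59 (95% interval -0.92 to -0.26; limma, adjusted p = 0.11). Over the same 13 alternatives its log2 fold change stayed between -0.68 and -0.47. Car9, the membrane carbonic anhydrase that controls pH outside the cell, was at 2.70 and 2.57 FPKM in R and 4.21 and 3.70 FPKM in vehicle, from 107 to 171 recovered reads. Its log2 fold change was -0.45 (95% interval -0.77 to -0.12; limma, adjusted p = 0.185). It shares 9.29% of its exon bases with the antisense gene Gm12454, which was at 1.38 to 2.94 FPKM, and no label says that strand was counted, so their reads cannot be told apart there. Ndrg1, a stress-induced cytoplasmic protein, was at 3.504 and 3.48 FPKM in R and 4.54 and 4.97 FPKM in vehicle, with a log2 fold change of -0.36 (95% interval -0.66 to -0.05; limma, adjusted p = 0.247).

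The 2 prolyl hydroxylases among the targets close the feedback loop on HIF, and both had lower values in R. Egln3 was at 2.71 and 3.59 FPKM in R and 4.66 and 4.54 FPKM in vehicle. The groups did not overlap, and the log2 fold change was -0.44 (95% interval -0.81 to -0.07; limma, adjusted p = 0.241). Egln1, the main oxygen sensor of the family, was at 26.2 and 26.0 FPKM in R and 29.9 and 28.9 FPKM in vehicle, a mean 11.1% lower with a 95% interval of the log2 fold change from -0.45 to 0.12. Egln2, which is not among the 32 and is not a classical HIF target, was at 32.02 and 25.3 FPKM in R and 23.8 and 22.1 FPKM in vehicle. The share of Egln3 in the summed FPKM of the 3 hydroxylases was 4.44 and 6.54% in R and 7.99 and 8.19% in vehicle. Ankrd37, a small ankyrin repeat protein, was near the filter, at 1.25 and 1.08 FPKM in R and 1.36 and 1.48 FPKM in vehicle. These values rest on 30 to 41 recovered reads per library, and the 95% interval of the log2 fold change, -0.53 to 0.20, includes 0. Ankrd37 shares 3.70% of its exon bases with Ufsp2 on the other strand, which was at 10.03 to 11.3 FPKM. It shares 22.7% with Lrp2bp, also on the other strand, which was at 0.0523 to 0.128 FPKM. Reads of Ankrd37 cannot be told apart from theirs there. Vegfa, the main vessel growth factor, did not follow the other targets: it was at 42.9 and 48.1 FPKM in R and 47.4 and 43.3 FPKM in vehicle. The groups overlapped, and the 95% interval of its log2 fold change ran from -0.32 to 0.33.

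The summed level of the 9 targets was 159 and 176 FPKM in R and 217 and 211 FPKM in vehicle. In 15 alternatives the log2 fold changes of 8 or 9 of the 9 lay below 0, or of 4 of the 5 that passed a filter at a mean of 5 FPKM. Macrophage markers had lower values in the same libraries: for 25 of 27 the log2 fold change was negative, their median was -0.59, and limma called 5 of them lower (Fcgr1, Ctss, Ly86, Itgam and Msr1), where 6087 of all 12176 tested genes were below 0 and 1.37% were called lower. Lyz2, the lysozyme of myeloid cells, was at 8891 and 7061 FPKM in R and 14569 and 12540 FPKM in vehicle, and did not pass the test (adjusted p = 0.321). Csf1r and Adgre1, surface proteins that define macrophages, did not pass either, at log2 fold changes of -0.26 and -0.13. Of the 24 stromal markers tested 18 had log2 fold changes above 0, with a median of 0.15, and 7 were higher at an unadjusted p under 0.05. Limma called 0 of the 24 higher and 1 lower, Ly6a (log2 fold change -1.71). Cxcl12 at -0.05 and Pdgfra at -0.16, with overlapping groups, lay on the other side of 0 from most of this list. The part of the macrophage transcripts in the lower values of the HIF targets, and in those of Hif1a and Pfkfb3 below, was not tested.

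**Figure D3:**
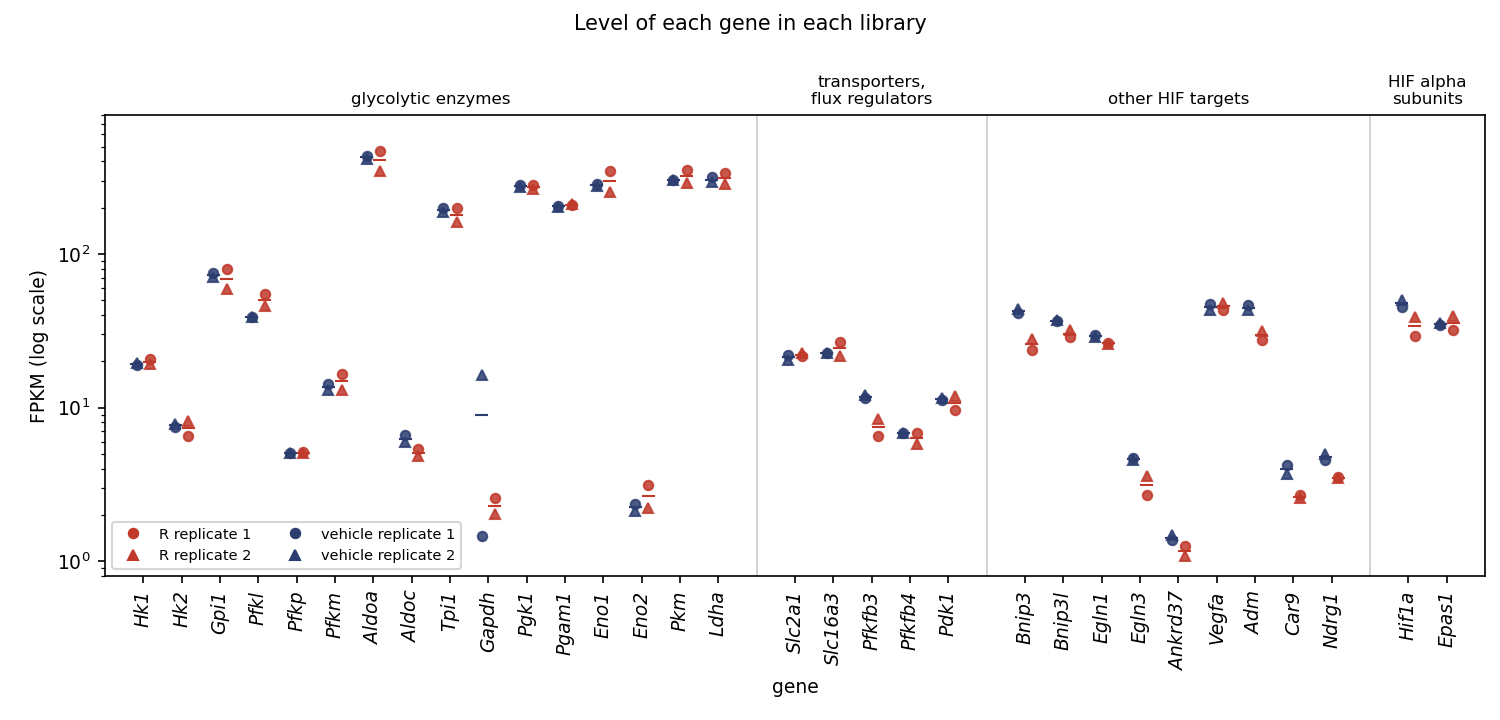
FPKM of each gene in each of the 4 libraries on a log scale, by role; circles are replicate 1, triangles replicate 2, blue vehicle and red R, and short lines the mean of 2 libraries. Both R values lie below both vehicle values for Bnip3, Adm, Pfkfb3 and Hif1a, while Pgk1 stays between 263 and 282 FPKM in all 4 libraries and Gapdh is high in vehicle replicate 2 only.

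Of the HIF alpha subunits, Hif1a had lower values in both R libraries and Epas1 had overlapping groups. Hif1a, the subunit that drives most glycolytic targets and is itself mainly controlled at the protein level, lies on chromosome 12 at 73901375 to 73947530. It was at 29.1 and 38.6 FPKM in R and at 45.3 and 49.8 FPKM in vehicle. Both R values lay below both vehicle values, with the R libraries further apart than the vehicle libraries. The log2 fold change was -0.49 (SE 0.170, 95% interval -0.91 to -0.07; limma, adjusted p = 0.246). Over the 13 alternatives without a replicate block its log2 fold change stayed between -0.69 and -0.29. Epas1, which encodes HIF-2 alpha, was at 31.8 and 39.7 FPKM in R and 34.5 and 35.5 FPKM in vehicle, with overlapping groups and a 95% interval of the log2 fold change from -0.35 to 0.39. Hif1a made up 47.7 and 49.3% of the summed FPKM of the 3 alpha subunits in R and 56.8 and 58.4% in vehicle. Hif3a was at or under 0.017 FPKM in each library. The difference between the changes of Hif1a and Epas1 was not tested.

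Among the transporters and flux regulators, Pfkfb3 stood below vehicle in R and the other 4 had overlapping groups. Pfkfb3 makes fructose 2,6-bisphosphate, the strongest activator of phosphofructokinase, and lies on chromosome 2 at 11471433 to 11554077. It was at 6.51 and 8.42 FPKM in R and at 11.5 and 12.0 FPKM in vehicle. Both R libraries were lower, by 36.4% in the mean, and the log2 fold change was -0.60 (SE 0.149, 95% interval -0.97 to -0.23; limma, adjusted p = 0.131). Limma called it after a correction for gene length (adjusted p = 0.0353), a setting that called 348 of all genes lower, against 167 without it. Its log2 fold change stayed between -0.76 and -0.44 over the 13 alternatives. Its relative Pfkfb4 was at 6.80 and 5.81 FPKM in R and 6.83 and 6.80 FPKM in vehicle. Slc2a1, the glucose transporter GLUT1, was at 21.6 and 22.6 FPKM in R and 22.1 and 20.3 FPKM in vehicle. Slc16a3, which exports lactate, was at 26.8 and 21.8 FPKM in R and 22.7 and 22.5 FPKM in vehicle. Pdk1, which blocks entry of pyruvate into mitochondria by phosphorylating pyruvate dehydrogenase, was at 9.68 and 11.8 FPKM in R and 11.2 and 11.5 FPKM in vehicle. For these 4 the 95% intervals of the log2 fold change included 0 and lay between -0.42 and 0.44.

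The glycolytic enzymes showed no common direction. The 8 most abundant of the 32 genes were all enzymes, from Gpi1 at percentile 94.4 of the tested genes by mean FPKM to Aldoa at percentile 99.3. Their summed level without Gapdh was 2380 and 1966 FPKM in R and 2188 and 2116 FPKM in vehicle, so the R libraries lay on either side of the vehicle libraries. Of the 16 enzymes 9 had log2 fold changes above 0 and 7 below. The groups overlapped in 13 of the 16, and in 6339 of all 12176 tested genes. R replicate 1 was higher than R replicate 2 in 14 of the 16, where it was higher in 6358 of all 12176 tested genes. The FPKM sum of R replicate 2 over all genes was 287360, against 333130 to 345709 in the other libraries. Leaving out R replicate 1 gave a median of -0.06 for the enzymes, and leaving out R replicate 2 gave 0.11. On a TPM scale, where the median of all genes was 0.13, the enzyme median was 0.15, and Hk2, Gpi1, Aldoa, Tpi1 and Pgk1 turned from below to above 0.

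In the order of the pathway, the hexokinases trap glucose in the cell. Hk1 was at 20.7 and 19.1 FPKM in R and 19.0 and 19.5 FPKM in vehicle, and Hk2, the inducible form, at 6.52 and 8.21 FPKM in R and 7.52 and 7.77 FPKM in vehicle. Hk3, the myeloid form and not among the 32, was at 14.7 and 14.1 FPKM in R and 17.7 and 15.9 FPKM in vehicle, so Hk1 held the largest share of the 3 in each library, 43.0 to 49.4%. Gpi1, the isomerase of the next step, ran from 58.9 to 79.3 FPKM, and both extremes were R libraries. Phosphofructokinase, the main control point, was mostly the liver form Pfkl. Pfkl was at 55.0 and 45.7 FPKM in R and at 38.6 and 38.7 FPKM in vehicle, the only enzyme with an unadjusted p under 0.05. Both R values were higher, with a log2 fold change of 0.37 (95% interval 0.02 to 0.71; limma, adjusted p = 0.29). Over the 13 alternatives its log2 fold change stayed between 0.24 and 0.50. The platelet form Pfkp stayed between 5.02 and 5.10 FPKM, and the muscle form Pfkm was at 16.6 and 13.02 FPKM in R and 14.2 and 12.9 FPKM in vehicle. Pfkp shares 5.58% of its exon bases with Pitrm1 on the other strand, which was at 12.4 to 15.1 FPKM. Their reads cannot be told apart there. The share of Pfkl in the 3 forms was 71.7 and 71.6% in R and 66.7 and 68.3% in vehicle.

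Of the enzymes of the middle steps, Aldoa, Tpi1 and Pgk1 had overlapping groups. Aldoa, which cleaves fructose 1,6-bisphosphate and was the most abundant of the 32, was at 466 and 347 FPKM in R and at 434 and 415 FPKM in vehicle. The R values spanned the vehicle values. Aldoc, the aldolase of brain and a HIF target, was at 5.34 and 4.85 FPKM in R and 6.58 and 5.96 FPKM in vehicle. It was the only enzyme with both R values lower, with a log2 fold change of -0.26 whose 95% interval, -0.57 to 0.05, includes 0. Tpi1, triose phosphate isomerase, was at 198 and 161 FPKM in R and at 199 and 187 FPKM in vehicle. Pgk1, phosphoglycerate kinase and the first ATP-yielding step, was at 282 and 263 FPKM in R and at 279 and 272 FPKM in vehicle. Its promoter, shown above, has 2 matches, and the 95% interval of the log2 fold change was -0.39 to 0.35. Pgam1, the mutase that follows, stayed between 203 and 210 FPKM. Both R values of Pgam1 were higher, by 2.65% in the mean.

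In the last steps, too, R values lay on both sides of vehicle for Eno1, Pkm and Ldha. Eno1, the main enolase, was at 346 and 252 FPKM in R and at 286 and 279 FPKM in vehicle. It has a close copy, Eno1b, at 17.6 to 23.0 FPKM, with which its reads could be split. Eno2, the neuronal enolase and a HIF target, was at 3.12 and 2.22 FPKM in R and 2.35 and 2.12 FPKM in vehicle. Pkm, pyruvate kinase, was at 350 and 289 FPKM in R and at 301 and 303 FPKM in vehicle. The values cover the whole gene, so its M1 and M2 isoforms were not separated. Ldha, which makes lactate, was at 338 and 287 FPKM in R and at 315 and 294 FPKM in vehicle, with a 95% interval of the log2 fold change from -0.38 to 0.44. Its partner Ldhb was at 45.8 and 33.4 FPKM in R and 30.2 and 27.3 FPKM in vehicle, and Ldha held 88.1 and 89.6% of their sum in R and 91.3 and 91.5% in vehicle. For the 14 enzymes other than Gapdh and Pfkl the 95% intervals lay within -0.57 to 0.59, so smaller changes in single enzymes were not resolved with 2 libraries a group.

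Gapdh, glyceraldehyde 3-phosphate dehydrogenase, had a level unlike that of its neighbours in the pathway, and its value is uncertain. It was at 2.57 and 2.02 FPKM in R and at 1.47 and 16.3 FPKM in vehicle, while Tpi1 and Pgk1, the steps on either side, were above 161 FPKM in every library. Vehicle replicate 2 was the only high library. The annotation holds 91 other genes whose transcripts match those of Gapdh over at least 200 bases at 95% identity or more, 89 of them pseudogenes. Their summed level was 39.6 and 32.4 FPKM in R and 34.4 and 34.7 FPKM in vehicle. With these added, the summed FPKM was 42.2 and 34.4 in R and 35.8 and 51.0 in vehicle. FPKM is scaled by the length of each gene, so this sum is not a level of Gapdh or of its reads. The labels do not say how reads that match several genes were counted. The log2 fold change of Gapdh was -0.99 with a 95% interval from -3.05 to 1.06. It was -2.40 without vehicle replicate 1 and 0.41 without vehicle replicate 2, so it rests on vehicle replicate 2. Of the other 31 genes, Tpi1, Bnip3l and Eno1 had the largest shares in matching genes, at most 18.6, 18.8 and 10.1% of the summed FPKM in a library. These are not shares of reads, because a read adds more FPKM to a short copy than to a longer gene.

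**Figure D4:**
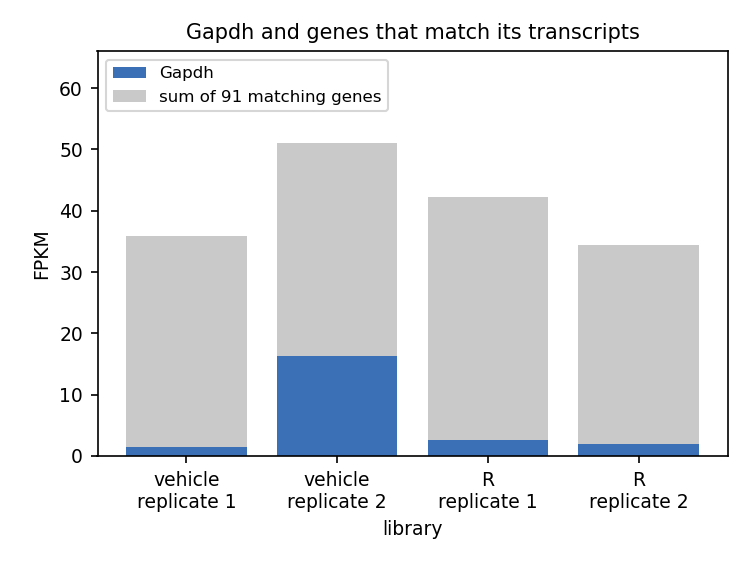
FPKM of Gapdh (blue) and, stacked on it, the summed FPKM of 91 genes with matching transcripts (grey) in each of the 4 libraries. Gapdh itself is 16.3 FPKM in vehicle replicate 2 and 1.47 to 2.57 FPKM in the other libraries, while the sum of the matching genes stays between 32.4 and 39.6 FPKM.

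Wider lists of the pathways were also counted. Among 37 tested of 40 further HIF targets limma called 0, with 4 lower and 3 higher at an unadjusted p under 0.05. The median was -0.05, 19 lay below 0 and 18 above, and the groups were apart in 12 lower and 5 higher, against 25.2% and 22.7% of all genes. Its member with the smallest p was Cxcr4, the receptor of the marrow chemokine Cxcl12, at 39.6 and 39.0 FPKM in R and 64.8 and 65.8 FPKM in vehicle. Its log2 fold change was -0.72 (limma, adjusted p = 0.0536), and voom on recovered reads called it lower (adjusted p = 0.03). Among 14 tested of 28 further glycolysis genes limma called 0, with 1 lower and 1 higher at an unadjusted p under 0.05. Voom tested 12 of them and called 0. The smallest p was that of Slc2a6, a hexose transporter, at 4.55 and 2.96 FPKM in R and 6.97 and 7.17 FPKM in vehicle (limma, adjusted p = 0.119).

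Of 17 genes of the machinery that controls HIF 15 were tested, with a median of -0.02. Limma called 0 of the 15, and 0 had an unadjusted p under 0.05. Voom tested 14 and called 0. Over all genes limma called 1.72% and voom 2.75%, so 0 calls in lists of this size, here and in the lists that follow, are near the background. At an unadjusted p under 0.05 the share of all genes was 16.0%, and whether these lists differ from it was not tested. Its smallest p was that of Arnt2, a partner of the alpha subunits, at 1.23 and 1.70 FPKM in R and 0.671 and 1.09 FPKM in vehicle. Among 14 genes of pyruvate dehydrogenase and pyruvate import limma called 0, with 1 lower and 1 higher at an unadjusted p under 0.05. Voom tested 13 of them and called 0. Pcx, pyruvate carboxylase, which feeds the citric acid cycle, was at 10.9 and 10.1 FPKM in R and 6.39 and 5.82 FPKM in vehicle. Its log2 fold change was 0.70 (limma, adjusted p = 0.0577), and voom did not test it. The 18 genes of the citric acid cycle and the 8 of the pentose phosphate pathway had medians of -0.03 and 0.00, and 0 of them had an unadjusted p under 0.05 or were called by voom. Their smallest p values were those of Sdha, a subunit of succinate dehydrogenase, with a log2 fold change of 0.20, and H6pd, hexose 6-phosphate dehydrogenase, with 0.29.

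**Figure D5:**
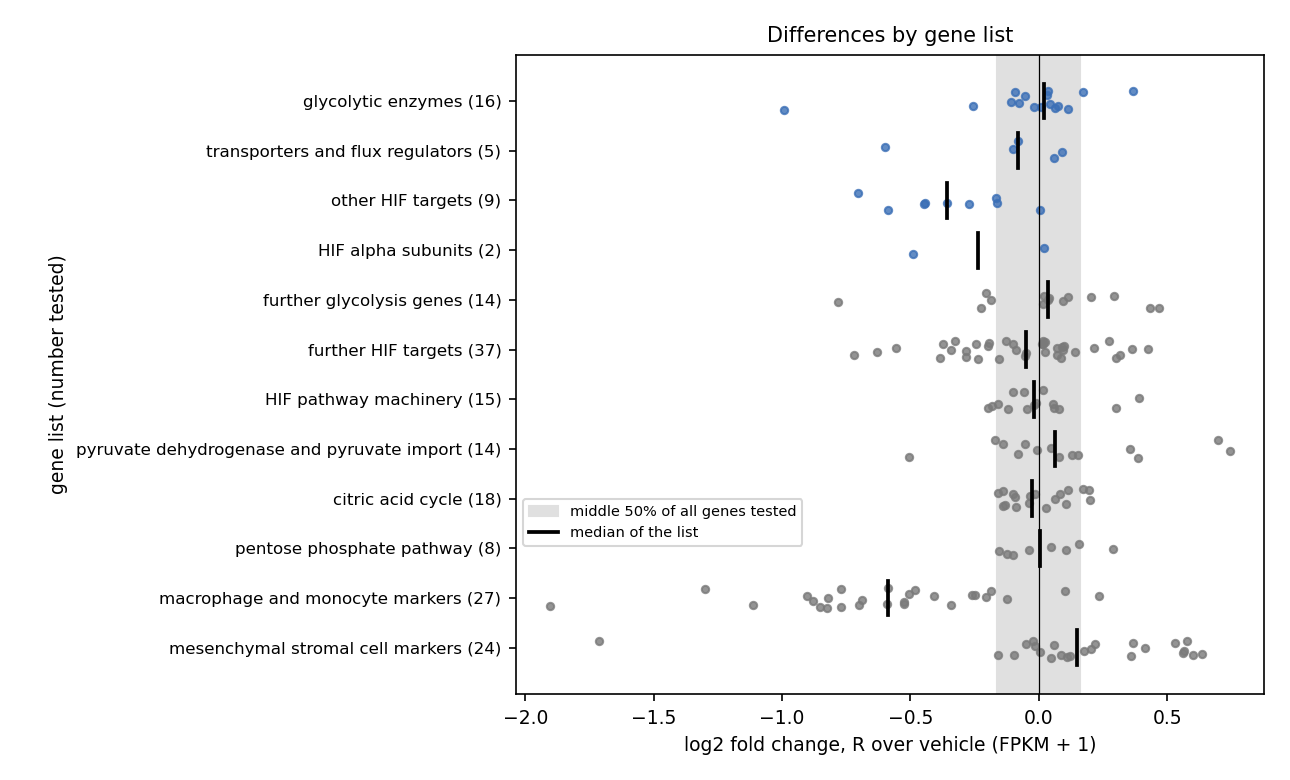
Log2 fold change of R over vehicle for every tested gene of 12 lists, each point a gene, black bars the list medians, and the grey band the middle 50% of all tested genes. The median of the other HIF targets (-0.36) and of the macrophage markers (-0.59) lie left of the band, and those of the enzymes (0.02) and of the longer HIF target list (-0.05) inside it.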

How the data were processed

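RNA sequencing libraries of 4 samples (2 R, 2 vehicle) were analysed from a table of FPKM values deposited by the authors. Per the submitters' processing notes, edgeR 3.18.1 was used with GRCm38 or mm10, in roles not stated. Which aligner and counter were run, and whether by strand, is not given in the sources used here. Symbols, places and exon lengths came from GENCODE M21 (54495 identifiers matched). Aldoa names 2 identifiers, and the one that RefSeq's Aldoa spans was used. FPKM times exon length gave whole reads (tolerance 0.02) for 96.3 to 96.4% of values above 0. Of the 32 genes Pgam1 and Epas1 did not give whole reads and have no voom value. The same holds for Pcx, Csf1r and Eno1b among the other genes named. The groups were compared with limma 3.58.1 in R 4.3.3 on log2(FPKM + 1), with a variance trend, over genes whose mean reached 1 FPKM, two-sided, with Benjamini-Hochberg adjustment over all genes tested. It left 2 residual degrees of freedom, and the scripts were tested on simulated data. Matching genes were found with blastn 2.17.0 on GENCODE transcripts (95% identity over 200 bases). Promoter windows are RefSeq's on GRCm38.p6.

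The 32 genes and the lists were chosen with earlier results of these data known. Named genes were the 32, the called members of each further list or the member with the smallest p, and 5 fixed markers. The 5 macrophage markers that were called, and genes beside a member in an isozyme family, were named after their values were seen. Alternatives were other pseudocounts, filters and scalings, voom, a fit without a variance trend, a length correction, each library left out and a replicate block.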

Additional observations from a re-analysis of the deposited data

How the results depend on the processing

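With 2 libraries a group, 0 of 32 genes were called in either direction, and this held under both other pseudocounts, both filters, TPM, quantile normalization and a fit without a variance trend. Called members lower in R numbered 1 with voom, 1 with the gene length correction and 0 to 4 when a library was left out, and members higher in R 0 to 1. Over all genes, 42 were higher and 167 lower. Without a filter limma called 0 and 0, voom called 83 higher, the length correction gave 199 and 348, and leaving out a library gave 96 to 438 higher and 193 to 665 lower. TPM gave 58 and 124 and moved the median of all genes to 0.13. The enzyme median was 0.02, 0.15 with TPM, 0.03 without Gapdh (chosen after seeing the data) and -0.06 to 0.11 with a library left out. The median of the 9 other HIF targets was -0.36, and -0.43 and -0.40 with pseudocounts of 0.1 and 0.5, -0.27 for the 5 with a mean of at least 5 FPKM, -0.29 with TPM, -0.44 with voom and -0.37 to -0.29 with a library left out. Signs of members that were not called turned for 7 genes with TPM, 3 with quantile normalization, 2 with the length correction, and 2 to 9 with a library left out. Where a library was left out, its group's other library was assumed to vary like the other group. The cause of these differences between settings was not tested.

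The replicate numbers are not said to pair the libraries. The deviations of same-numbered libraries from their group means correlated at 0.35 over genes. A replicate block called 891 genes higher and 1009 lower, and 7 of the 32 lower (Gapdh, Pfkfb3, Bnip3, Egln3, Adm, Car9 and Hif1a). The block leaves fewer residual degrees of freedom than the 2 of the main fit, so its calls lean more on the variance of other genes. Gapdh was called although R was above vehicle in replicate 1, at 2.57 against 1.47 FPKM. In replicate 2 it was below, at 2.02 against 16.3 FPKM. With the length correction added the replicate block called 586 higher and 679 lower, and 3 of the 32 lower.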

Other observations

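Tpi-rs11, a processed pseudogene of 310 bases on chromosome 6 at 127183409 to 127183718 (GRCm38) whose transcript matches Tpi1 at 97.7% identity, was at 45.3 and 30.5 FPKM in R and 16.8 and 11.1 FPKM in vehicle. Both R values were higher, while Tpi1 itself had overlapping groups. Gm7336, the most abundant of the genes that match Gapdh, was at 10.2 and 9.92 FPKM in R and 3.41 and 6.88 FPKM in vehicle, with both R values higher. Both genes were chosen after their values were seen. The labels do not say how reads that match both a copy and its parent gene were counted.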
